A study of Homo sapiens with 6 samples.

Results

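The vector control of a circANRIL overexpression experiment was described on its own. It comprised 3 Illumina HumanHT-12 v4 arrays of the 6 in the series, each hybridised with total RNA from HEK-293 cells (ACC305) that stably carried the empty pBI-CMV2 vector. This vector is bicistronic and encodes a green fluorescent protein beside the insert site, and per the study's methods stable lines were made by co-transfection with a neomycin-encoding vector. The methods count the array samples as cell lines, whereas the sample labels only number them 1 to 3. Spread between the arrays can therefore be spread between lines, between cultures or between hybridisations, and these cannot be told apart. No comparison with the circANRIL arrays was made, and because the arrays form a single group no difference between them was tested.

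HEK-293 is a permanent line derived from human embryonic kidney tissue by transformation with adenovirus DNA. Although it is named for kidney, it is known for a mixed character in which neurofilament and early neural genes are transcribed, and for an unstable karyotype with more chromosomes than a diploid cell. It is widely used for stable transfection because it grows fast and takes up DNA readily, and lines established from it are often expanded from few cells.

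A probe was called detected on an array where its deposited detection p-value, which ranks the probe's signal among negative control beads, was below 0.05. Of 47315 probes, 22151 were detected on array 1, 21209 on array 2 and 20888 on array 3. Detection held on all 3 arrays for 18392 probes, on 2 arrays for 2407, on 1 array for 4258 and on none for 22258. The 20799 probes detected on at least 2 arrays were kept, which is 44.0% of all probes. Around this rule, probes detected on exactly 2 arrays had a median level of 4.74 and those detected on exactly 1 array of 4.55 on the normalized log2 intensity scale, against 4.33 for probes detected on none and 6.85 for all kept probes. Of the kept probes, 15964 carried 1 gene symbol and stood for 11909 genes, or 59.4% of the 20044 genes with a named probe. The number of arrays limits the precision of every value below.

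Genes of protein synthesis were among the brightest probes. The brightest named probe was a probe of EEF1A1, the elongation factor that brings aminoacyl-tRNA to the ribosome, at 13.56, 13.60 and 13.56 on arrays 1, 2 and 3. RPS12, a protein of the small ribosomal subunit, read 13.51, 13.56 and 13.50, and RPL18 of the large subunit read 13.48, 13.36 and 13.49. The 25 genes with the brightest named probes lay between 13.23 and 13.57, and 8 of them were cytosolic ribosomal protein genes. TPT1, the translationally controlled tumour protein, read 13.43, 13.23 and 13.36, and the chaperone gene HSP90AA1 13.17, 13.21 and 13.37. These probes hardly varied between arrays, with ranges from 0.04 to 0.35 log2. A probe's brightness also depends on its binding and on the top of the scanner's range, so this is an order of probes and not of transcripts.

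Many genes of the ribosome and of elongation are known to share a run of pyrimidines at the very start of the transcript, through which their translation is controlled by growth signals. The start sites of the brightest such genes are shown for that feature, from 10 bases before the start to 20 bases from it, with the pyrimidine run that begins with C at the start in capitals (RefSeq, GRCh38.p14, strand of the gene).
EEF1A1: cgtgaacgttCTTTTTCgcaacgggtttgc
RPS12: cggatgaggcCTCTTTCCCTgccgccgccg
RPL41: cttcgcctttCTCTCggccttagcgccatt
RPL18: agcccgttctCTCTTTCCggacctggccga
RPL38: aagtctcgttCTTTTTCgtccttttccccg
TPT1: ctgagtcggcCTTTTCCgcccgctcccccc
RPS15: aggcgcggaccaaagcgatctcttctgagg
RPS29: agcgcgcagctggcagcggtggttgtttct
Capitals are absent from RPS15 and RPS29, whose listed start is not followed by a run of at least 5 pyrimidines beginning with C. Of the 71 detected cytosolic ribosomal protein genes, 59 had a promoter entry, and 43 of these (72.9%) held such a run at a listed start, on the strand of the gene. The share was 7.40% of the 9603 kept genes with an entry, 5.14% of all 27305 genes with an entry, and 8.82% of the 68 mitochondrial ribosomal protein genes with an entry. A match is a description of letters and not of use.

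Several of the brightest probes disagreed with further probes of their gene. Of the 25 genes, 18 had another named probe, and in 11 of these the next brightest probe was more than 4 log2 dimmer. F2R, which encodes the thrombin receptor, had 1 probe at 13.37, 13.37 and 13.34 and another with a mean of 7.32. CCR6, a chemokine receptor gene known from lymphocytes, had a probe with a mean of 13.23, and its next probe had a mean of 5.09. ITIH5, MSH3, ROCK2, ORC6, FAM177A1 and RRP7BP showed the same split, with next probes that had means of 4.38, 8.10, 8.13, 8.53, 6.12 and 5.89. The same was seen for RPL41, at 13.49 and 5.19, and for RPL32, at 13.31 and 6.45. The level of these genes cannot be read from their brightest probe. RPSAP9, ANXA2P2 and RPL13AP20 are processed pseudogenes whose probes can also bind the transcripts of RPSA, ANXA2 and RPL13A, and their values are uncertain. The small structured RNAs SNAR-A1 and RN7SL1, the latter being the RNA of the signal recognition particle, read 13.38 and 13.26 on average. Of the 100 brightest probes 62 had no gene name in the annotation used here.

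Families of housekeeping genes were detected almost throughout, beside 59.4% of all genes with a named probe. Counting a gene as detected where any of its probes was detected on at least 2 arrays, 71 of 74 cytosolic ribosomal protein genes were detected, with a median level of 12.59 over the detected members. All 76 mitochondrial ribosomal protein genes were detected, with a median of 9.41. All 10 cytochrome c oxidase subunit genes were detected, with a median of 11.15, and 16 of 17 genes of the ATP synthase, with a median of 11.27. The proteasome family had 31 of 35 members detected, and complex I of the respiratory chain 33 of 35. All 16 cytosolic tRNA synthetase genes, all 12 serine/arginine-rich splicing factor genes and all 23 spliceosomal Sm and LSm genes were detected. So were all 17 glycolytic enzyme genes, among which ENO1 read 13.12, 13.06 and 13.20, whereas ENO2, the neuronal enolase, read 6.02, 6.08 and 5.56.

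Genes of dividing cells were detected throughout, beside 59.4% of all genes with a named probe. All 16 genes of the DNA replication list, which holds the MCM helicase subunits, were detected at a median level of 10.63, and none had a range above 1 log2. All 18 genes of mitosis and the spindle were detected at a median of 9.95, again none with a range above 1 log2. Such a range was seen in 5.33% of all genes and in 1.61% of kept probes with levels from 10 to 11. Its absence from lists this short does not set them apart. Values of the genes the study was about follow. PES1, BOP1 and WDR12, the 3 proteins of the PeBoW complex needed for maturation of ribosomal RNA, had levels of 7.62 ± 0.05, 10.34 ± 0.06 and 9.87 ± 0.20 (mean ± SD, n = 3 arrays). NOP14, another nucleolar ribosome assembly factor, had a level of 8.73 ± 0.25 and a range of 0.45, beside a median range of 0.39 over the kept probes. CDKN2A, which encodes p16INK4a and p14ARF, read 9.19, 9.00 and 9.04 by its brightest probe. Its neighbour CDKN2B, which encodes p15INK4b, read 7.17, 7.19 and 7.29 by its brightest. Further CDKN2A probes had means of 7.64 and 4.42, the latter detected on no array. Further CDKN2B probes had means of 6.88 and 4.43, the latter detected on 1 array. ACTB was at 12.43, 12.71 and 13.06 and GAPDH at 12.15, 11.78 and 11.96. The ranges of these reference genes by their brightest probes were 0.63 and 0.37, the former above the highest range among the 100 brightest probes (0.48). Further probes had ranges of 0.42 and 0.41 for ACTB and 0.63 and 0.54 for GAPDH, so this order depended on the probe. The ranges of PES1, BOP1 and WDR12 were 0.09, 0.13 and 0.38.

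At the other end stood families that serve differentiated tissues, whose detected shares lay below the 59.4% of all genes with a named probe. Of 371 olfactory receptor genes 11 were detected, with a median level of 4.77, close to that of undetected probes. None of the 17 type I interferon genes was detected, and 4 of 80 keratin-associated protein genes, 3 of 53 clustered protocadherin genes, 2 of 37 beta-defensin genes and 2 of 25 bitter taste receptor genes were. Of 49 keratin genes only KRT10 and KRT8 were detected. Zinc finger ZNF genes stood apart from these, with 373 of 483 (77.2%) detected at a median level of 6.69.

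Of the homeobox HOX genes, which specify position along the body axis, 21 of 29 were detected (72.4%, beside 59.4% of all genes with a named probe). Detection held for 8 of 10 HOXB genes, 5 of 9 HOXC genes and 7 of 9 HOXD genes with a named probe. HOXC6 was the brightest at 9.93, 10.03 and 9.56, followed by HOXC4 at 8.71, 9.05 and 8.83 and HOXB5 at 8.26, 8.12 and 7.94. Of the 21 detected HOX genes 1 had a range above 1 log2 (4.76%), close to the 5.33% of all genes. This was HOXB3, by a dim probe that was not detected on array 1 (4.44, 5.09 and 5.55). A further HOXB3 probe, detected on all 3 arrays, was flat (4.91, 5.10 and 4.88).

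The label of the cells was set against lineage marker lists, of which the kidney lists gave a divided picture. Among 13 genes of kidney development 8 were detected (61.5%, beside 59.4% of all genes with a named probe). Of these, SIX2, LHX1 and CITED1 were detected on 2 arrays only, with means of 4.64, 4.83 and 4.67, and SALL1 had a mean of 5.12. FOXD1, a transcription factor of the renal stroma, read 8.54, 8.37 and 8.54. EYA1, a cofactor needed for nephron progenitors, read 6.80, 8.10 and 7.82 and was lowest on array 1. EMX2, which the ureteric bud needs to grow in mice, read 7.84, 7.12 and 7.07, and the nephron progenitor and podocyte factor WT1 read 6.18, 6.01 and 6.49. The named probes of PAX2, PAX8, OSR1 and GATA3 were detected on no array. Of 15 genes of mature nephron segments only PODXL, which encodes the podocyte sialoprotein podocalyxin and is also made by other cell types, and CALB1 were detected, with PODXL at 7.70, 8.09 and 7.29. NPHS1, CUBN, AQP1, AQP2, SLC34A1, SLC12A1, SLC12A3 and CDH16 were detected on no array.

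Of the neuronal list 14 of 19 genes were detected (73.7%, beside 59.4% of all genes with a named probe), the highest share of the lineage lists by detection on at least 2 arrays. On all 3 arrays 11 of the 19 were detected, a lower share than the 7 of 11 of the neural progenitor list. The median level of the 14 detected genes was 5.96, below the 7.44 over all kept genes. NEFM, which encodes the medium neurofilament subunit, read 12.11, 12.67 and 12.85, and NEFL, the light subunit, read 9.57, 10.21 and 10.47. UCHL1, a ubiquitin hydrolase abundant in neurons, read 10.01, 11.28 and 10.54. All these were lowest on array 1. STMN2, a microtubule regulator of growing axons, went another way at 8.88, 9.39 and 6.68, lowest on array 3. INA, which encodes a further neurofilament protein, was detected on 1 array. DCX, ELAVL4 and RBFOX3, which mark migrating and mature neurons, were detected on none, and TUBB3 stayed dim at 6.04, 6.01 and 6.06. NEFH, MAP2 and SNAP25 were detected on 2 arrays only, with means of 4.97, 4.84 and 5.05. SYP, SYT1 and GAP43 were dim too, with means of 5.29, 5.46 and 5.43.

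Genes of neural progenitors were detected for 7 of 11 (63.6%, beside 59.4% of all genes with a named probe). SOX1, SOX3, SOX11 and FABP7 were detected on no array, and NES was dim with a mean of 4.87. SOX2 read 8.47, 8.06 and 8.26, PAX6 7.80, 7.70 and 7.79, and POU3F2 7.67, 7.38 and 7.35, all transcription factors of neural stem and progenitor cells. HES5, a target of Notch signalling, fell apart from them with 9.07 and 9.17 on arrays 1 and 2 but 7.71 on array 3. Of 10 genes of the adrenal medulla and neural crest, TFAP2A (9.18, 9.45 and 9.09), GATA2 (7.70, 7.18 and 8.02) and HAND2 were detected, while TH, DBH and DDC, the enzymes of catecholamine synthesis, and CHGA were not detected on any array. Of 9 adrenal cortex genes only FDX1, a mitochondrial electron carrier that many tissues also use, was detected, at 5.78, 5.69 and 5.97. NR5A1, STAR, CYP11A1 and CYP17A1 were detected on no array.

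Of the mesenchymal and matrix list 10 of 18 genes were detected (55.6%) and of the epithelial list 4 of 15 (26.7%), beside 59.4% of all genes with a named probe. VIM, the mesenchymal intermediate filament, read 12.03, 12.02 and 11.88. SNAI2, a repressor of epithelial genes, read 10.02, 9.61 and 10.32, N-cadherin CDH2 10.10, 10.27 and 9.32, and the basement membrane collagen COL4A1 10.17, 10.02 and 9.87. FN1, SPARC, THY1 and PDGFRB of mesenchyme were detected on no array, and COL1A2, PDGFRA, LUM and DCN on 1. CDH1, KRT19, OCLN, ESRP1 and GRHL2 of epithelia were detected on no array. The epithelial genes that were detected were dim on arrays 1 and 3, and 2 of the 4 had a range above 1 log2, both highest on array 2. EPCAM, an epithelial adhesion molecule, read 4.96, 7.06 and 4.69, and KRT8 5.18, 6.36 and 5.12.

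**Figure D1:**
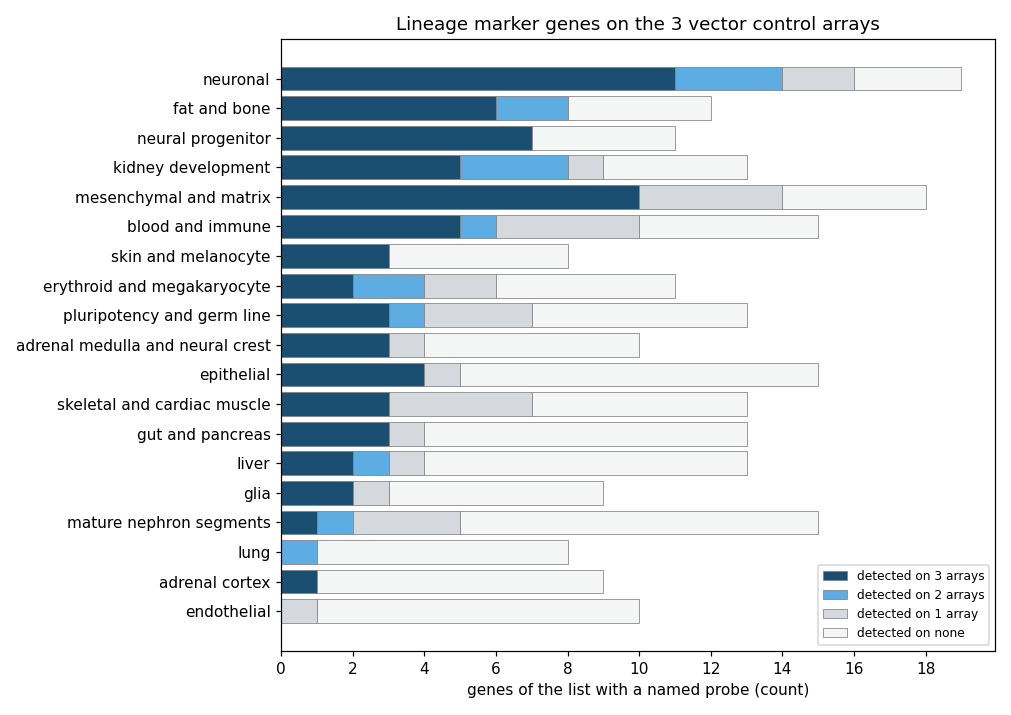
Number of genes in each lineage list (horizontal axis, count of genes with a named probe) that were detected on 3, 2, 1 or none of the vector control arrays, with lists ordered by the share detected on at least 2 arrays. The neuronal list has 14 of 19 genes on at least 2 arrays, and the endothelial list holds none of 10 on at least 2 arrays.

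The other lineage lists were detected to very different extents, beside a share of 59.4% over all genes with a named probe. No endothelial gene of 10 was kept, PECAM1, CDH5, VWF and KDR being detected on no array. In the blood and immune list 6 of 15 genes were detected. CD68, a lysosomal protein of macrophages that other cells also make, read 8.71, 8.72 and 8.80, and PTPRC, the pan-leukocyte phosphatase, was not detected on any array. In the gut and pancreas list CDX2, an intestinal homeobox factor, read 8.39, 7.91 and 8.11 beside AMY2A and PDX1, whereas VIL1, MUC2, INS and GCG were not detected. NKX2-5, a cardiac homeobox factor, read 7.75, 7.02 and 7.50, whereas MYOD1, DES and CKM were not detected. Of the fat and bone list 8 of 12 genes were detected (66.7%). PPARG read 8.39, 8.88 and 8.61 and LEP, the gene of leptin, 8.17, 8.01 and 7.93. FABP4 and PLIN1 of mature adipocytes were not detected. LIN28B, an RNA-binding protein that blocks let-7 maturation, read 10.20, 10.35 and 10.50, and PRAME, a cancer-testis antigen, 8.03, 8.09 and 7.57, whereas POU5F1 and NANOG were detected on no array. A named probe that stays undetected can also be a probe that binds poorly, which was not tested.

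The 3 arrays were then compared with each other. Over the kept probes Pearson's r was 0.984 between arrays 1 and 2, 0.979 between arrays 1 and 3 and 0.982 between arrays 2 and 3, which describes probes and not independent replicates. The median range of a kept probe, its highest minus its lowest array, was 0.39 log2. The range was above 1 log2, that is above 2-fold, for 927 probes (4.46% of 20799), and above 2 log2 for 54 probes. By its brightest kept probe, 635 of 11909 genes (5.33%) had a range above 1 log2. Between arrays 1 and 2, 127 probes (0.611%) were more than 1 log2 higher on array 1 and 202 (0.971%) on array 2. Between arrays 1 and 3, 336 (1.62%) were higher on array 1 and 178 (0.856%) on array 3. Between arrays 2 and 3, 293 (1.41%) were higher on array 2 and 94 (0.452%) on array 3. Array 3 was thus the lowest for most of the widely varying genes, 365 of 635, compared with 183 for array 1 and 87 for array 2, although it was the lowest for 35.9% of all genes. In the deposited signals, array 3 had the fewest detected probes but the highest median, 7.01 against 5.93 and 6.54 on arrays 1 and 2, and the highest 90th percentile, 482 against 401 and 417. The part of these values in the ranges was not tested.

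The spread depended on the level. A range above 1 log2 was seen in 0.987% of the 3444 kept probes with a mean level below 5 and in 7.74% of those from 6 to 7. It was seen in 3.42% of those from 8 to 9, in 0.686% of those from 11 to 12 and in none of the 466 probes above 12. Below 5 there was little room for such a range, because the lowest level of any probe was 4.12. The small share there thus does not show that the dimmest probes were steady. Different probes of the same gene offered a separate reading of the same RNA. In 3236 genes with at least 2 kept probes, 168 had a range above 1 log2 by the brightest, and in 108 of these (64.3%) the second brightest probe had the same highest and the same lowest array, beside 35.9% over all 3236 genes.

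The widest range was that of ZNF22, a zinc finger gene of chromosome 10, at 9.09, 8.71 and 4.78. In deposited signal this was 491 and 393 on arrays 1 and 2 and 12.2 on array 3. Its second probe read 8.93 and 8.59 and was not detected on array 3, where the mean of arrays 1 and 2 was at least 17.0-fold above the dimmest detected signal of that array. ZNF22 was thus on in arrays 1 and 2 and at or near background in array 3. BCHE, which encodes the serum cholinesterase, was the reverse case, low on array 1 at 5.95 and high at 8.96 and 9.25 on the others, and its second probe read 4.87, 7.82 and 8.02.

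Most of the other genes among the 25 widest are given by what they encode, a grouping made after their values were seen. Of genes for surface and matrix proteins, HAS2, a hyaluronan synthase, read 6.34, 9.34 and 7.32, although a further kept probe read 5.06, 5.92 and 4.65. CCN3, a secreted matricellular protein, read 9.63, 12.28 and 11.51. MPZL2, an epithelial adhesion molecule, read 6.62, 8.28 and 5.35, EMP1, an epithelial membrane protein, 5.60, 8.28 and 7.12, and PAMR1, a secreted protease-like protein, 5.57, 7.78 and 5.34. PXDN, a peroxidase that crosslinks basement membrane collagen, and LAMA1, a laminin chain, were highest on array 1, with PXDN at 7.39, 5.27 and 5.04 and LAMA1 at 7.51, 6.12 and 5.36.

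Metabolic enzymes were also among the 25. PCK2, the mitochondrial enzyme that makes phosphoenolpyruvate, read 7.66, 8.54 and 6.07, and its 2 other kept probes were also highest on array 2 and lowest on array 3. GLDC, of the glycine cleavage system, read 7.66, 7.44 and 5.05. ALDH1A2, which makes retinoic acid, read 7.95, 9.08 and 6.92, and its second probe 6.04, 6.90 and 5.43. MAOA, which oxidises monoamines, was high on array 3 alone, at 6.22, 6.42 and 8.57. FABP5, a fatty acid binding protein outside the 25 widest, was likewise highest on array 3. It read 8.16, 7.47 and 9.53 by its widest probe and 8.93, 8.39 and 10.29 by its brightest.

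Neural and signalling genes completed the set. STMN2 was low on array 3 by both of its probes, the second of which read 8.59, 9.04 and 6.36. EEF1A2, the elongation factor form of neurons and muscle, read 11.50, 10.25 and 8.66. JAKMIP2, a gene known from neural tissue, read 7.96, 6.85 and 5.44, and GHR, the growth hormone receptor, 8.60, 7.48 and 6.23. TRIM4, a ubiquitin ligase, was instead highest on array 3, at 6.73, 8.20 and 9.42. AMOT, a scaffold of the Hippo pathway, read 7.21, 8.12 and 5.95. RNF144A, a ubiquitin ligase, was low on array 3 by both probes, at 7.51, 7.52 and 5.29 and at 6.99, 6.61 and 5.16. For BEX1 the probe with the wide range read 5.38, 8.03 and 5.55, while its brighter probe was flat at 6.67, 6.56 and 6.67. Dimmer kept probes of MPZL2 were also highest on array 2 but had ranges of only 0.52 and 0.66. Outside this grouping, CDCA7L was lowest on array 3, at 7.11, 7.32 and 4.81. ANXA3 was highest on array 2, with a range of 2.17. EPCAM is given with the epithelial list and THEM6 below.

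Single genes left array 2 downwards less far than they left the other arrays. The gene farthest below on array 3 was ZNF22, by a deviation of −4.13 from the mean of the other arrays, and on array 1 BCHE, by −3.15, whereas on array 2 it was THEM6, by −1.39. THEM6 read 9.47, 7.26 and 7.84. FABP5 followed, then MTPAP, the mitochondrial poly(A) polymerase, at 9.80, 8.61 and 9.87, SPON1, a secreted matrix protein, at 8.54, 7.15 and 8.11, and RFC3, a subunit of the clamp loader of DNA replication, at 6.15, 5.20 and 6.60. Upwards the extremes were alike, with ZNF22 at 2.35 on array 1, BEX1 at 2.57 on array 2 and MAOA at 2.25 on array 3.

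**Figure D2:**
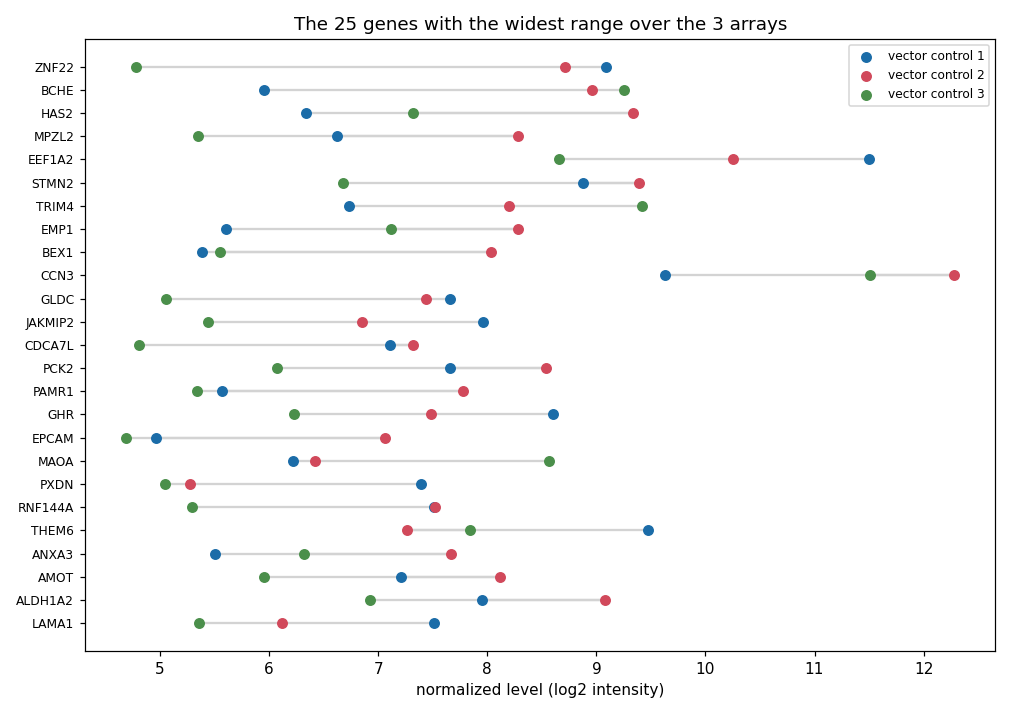
Normalized level (horizontal axis, log2 intensity) of the 25 genes with the widest range among probes detected on all 3 arrays, 1 point per vector control array and 1 row per gene, widest at the top. ZNF22 spans 4.32 log2 with array 3 far below the other arrays, and the gene with the narrowest range shown, LAMA1, spans 2.15 log2.

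Of 1430 named probes detected on 2 arrays but not on the third, 653 were undetected on array 3, 394 on array 2 and 383 on array 1. Most were dim throughout, and a mean of the detected arrays at least 2-fold above the third array was reached by 28, 1 and 5 probes, respectively. All 3 probes of P4HTM, a transmembrane prolyl hydroxylase, were among the 28, reading 8.24, 7.53 and 7.44 on array 1 and 7.42, 6.72 and 6.53 on array 2. The mean log2 level of arrays 1 and 2 was at least 8.92-, 5.47- and 4.95-fold above array 3 for these probes. By the same measure MYO5C, an epithelial unconventional myosin, was at least 6.59-fold higher, OXCT1, which breaks down ketone bodies, at least 4.58-fold, and CA8, a carbonic anhydrase-related protein, at least 4.27-fold. SLC16A14 and ECHDC2 were 2 of the 5 undetected on array 1, and their mean over arrays 2 and 3 was at least 2.89- and 2.77-fold higher. ECHDC2 read 7.26 on array 3 and 4.89 on array 2, so that array 3 carried most of the difference.

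Lists of genes that respond to the state of a culture were compared by a deviation, the level on 1 array minus the mean of the other arrays, of which the median over all 11909 genes was 0.01, 0.02 and 0.00 for arrays 1, 2 and 3. The integrated stress response list, genes that ATF4 drives when amino acids are short, had 21 of 24 genes detected. Its median deviations were 0.06, 0.36 and −0.38, and 8 of the 21 genes (38.1%, beside 5.33% of all genes) had a range above 1 log2. Array 3 was the lowest for 17 of the 21 genes, beside 35.9% of all genes, and array 2 the highest for 14, beside 32.4%. The deviation of array 2 was 0.22 without array 3, and that of array 3 was −0.25 without array 2. ASNS, the asparagine synthetase, read 10.41, 11.50 and 10.27, and its second probe 9.49, 10.52 and 9.38. PSAT1, an enzyme of serine synthesis, read 11.01, 11.23 and 10.15, and CTH, of cysteine synthesis, 8.06, 8.72 and 7.65. DDIT4, an inhibitor of mTORC1, read 9.92, 9.61 and 8.44, TRIB3, a pseudokinase, 6.63, 6.57 and 5.51, and the transcription factor CEBPB 9.60, 10.06 and 9.00. ATF4 itself read 12.60, 12.86 and 12.36. DDIT3, the factor CHOP, differed little at 6.91, 6.81 and 6.72.

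Heat shock genes were placed the other way. The 9 detected genes of 10 had median deviations of −0.12, −0.12 and 0.40. Array 3 was the highest for 7 of the 9, beside 33.5% of all genes, although none of the 9 had a range above 1 log2. HSPA6, an inducible HSP70 gene, read 6.37, 6.39 and 7.30, and its second probe 4.62, 4.83 and 5.62. HSPA8, the constitutive HSP70, read 12.13, 11.92 and 12.44, and DNAJB1, a co-chaperone, 8.11, 8.63 and 9.00. HSPA1A and HSPA1B are near identical, and their probes, at 12.49, 12.58 and 12.61 and at 12.50, 12.50 and 12.94, cannot be assigned with certainty. HSPB1 and SERPINH1 did not share the pattern, being highest on array 2 at 10.26, 10.91 and 10.04 and at 7.15, 7.58 and 6.96.

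Promoter letters known from these responses are shown for members that carry them (RefSeq, GRCh38.p14, strand of the gene, 30 bases each, capitals marking the match on either strand).
HSPA6: cggaaaggTTCGCGAAAGTTCgcggcggcg
HSPA8: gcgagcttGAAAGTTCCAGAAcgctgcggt
SERPINH1: ttccaactTTCCAGAAGTTTCtcgggacgg
ASNS: cgcaggcaTGATGAAActtcccgcacgcgt
SLC7A1: cgcactgcTGATGAAAcctggcgccggaac
The heat shock element was searched as GAANNTTCNNGAA on both strands, within 250 bases before and 50 after each listed start. It was found for 3 of the 9 detected heat shock genes (33.3%), beside 0.510% of kept genes and 0.608% of all genes with an entry. The match began 74 bases before the start in HSPA6, 230 before it in HSPA8 and 76 before it in SERPINH1. The amino acid response letters TGATGNAA were found for 3 of the 19 integrated stress response genes with an entry (15.8%), namely ASNS, SLC7A1 and SLC3A2, beside 2.73% of kept genes and 4.46% of all genes with an entry. Of the genes with a match, SERPINH1 and SLC7A1 (10.69, 10.61 and 10.64) did not move with their lists.

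Of the remaining lists, cholesterol synthesis stood highest on array 1, with median deviations of 0.37, −0.01 and −0.19 over all 15 genes. Array 1 was the highest for 12 of the 15, beside 34.0% of all genes. Among them were HMGCS1, at the head of the pathway (10.92, 10.53 and 10.21), and the squalene epoxidase SQLE (11.46, 11.05 and 11.21). IDI1, the isopentenyl diphosphate isomerase, was the only one with a range above 1 log2, at 9.41, 7.97 and 8.01. NSDHL and EBP, both later enzymes encoded on the X chromosome, went against the list and were lowest on array 1, at 8.28, 8.64 and 8.96 and at 8.17, 8.63 and 8.93. Hypoxia-inducible genes were lowest on array 3 for 12 of 15, beside 35.9% of all genes, with median deviations of 0.18, 0.14 and −0.29. The widest were PFKFB4, a regulator of glycolysis, at 7.90, 7.52 and 5.91 and the glucose transporter SLC2A3 at 6.77, 8.49 and 6.62. Genes induced by p53 had median deviations of 0.09, 0.02 and −0.08. None of the 17 detected had a range above 1 log2, beside 5.33% of all genes.

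HLA genes, which present antigens to T cells, had larger median deviations than the other lists in the plot of list deviations. Of 21 genes 18 were detected, with median deviations of 0.08, 0.56 and −0.67, and 8 of the 18 (44.4%, beside 5.33% of all genes) had a range above 1 log2. Array 2 was the highest for 14, beside 32.4% of all genes, and array 3 the lowest for 16, beside 35.9%. Class II genes took part, such as HLA-DPA1 at 7.39, 8.10 and 7.01, HLA-DMA at 6.44, 6.87 and 5.81 and HLA-DOA at 5.86, 6.67 and 4.85. Class I genes did so less evenly, with HLA-F at 6.60, 6.67 and 5.54 and HLA-B at 8.08, 8.30 and 7.34, while HLA-E was lowest on array 1 (7.26, 7.64 and 7.71). The deviation of array 2 was 0.26 without array 3, and that of array 3 was −0.34 without array 2. In the authors' normalized table these deviations were 0.27 and −0.33. HLA genes resemble each other, and their probes may share targets. B2M, the common light chain of class I molecules, was even at 10.67, 10.82 and 10.80, and the interferon-stimulated list as a whole had median deviations of −0.02, 0.03 and −0.11. Within it IFITM2 (8.29, 6.89 and 6.83) and IRF7 (7.66, 6.59 and 6.64) were highest on array 1, and IFI6 (8.92, 8.84 and 7.81) was lowest on array 3.

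**Figure D3:**
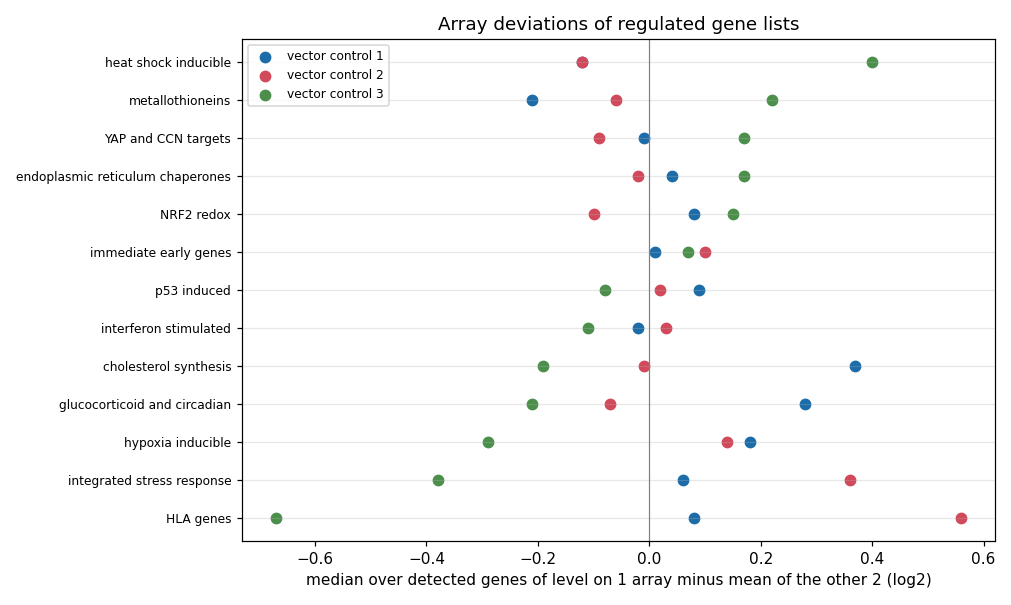
Median over the detected genes of each list of the level on 1 vector control array minus the mean of the other arrays (horizontal axis, log2), 1 point per array. Array 3 lies at −0.67 for HLA genes and −0.38 for the integrated stress response and at 0.40 for heat shock genes, and array 1 at 0.37 for cholesterol synthesis.

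The position of the genes went along with the differences between arrays. Genes were assigned to chromosomes and ordered by the GRCh38.p14 gene table. Over the 516 genes of chromosome 5 the median deviations were 0.27, −0.34 and 0.05, so that array 2 was low and array 1 high. Over the 422 genes of chromosome X they were −0.31, 0.19 and 0.11, with array 1 low. Chromosome 7 (574 genes) had −0.23, 0.19 and 0.02, and chromosome 20 (321 genes) had 0.16, 0.05 and −0.21. Chromosomes 3 and 12, in contrast, lay within 0.06 of 0 on every array, with 0.03, 0.02 and −0.05 over 680 genes and 0.06, 0.00 and −0.05 over 606 genes. The share of genes with a range above 1 log2 was 5.33% over all genes. On chromosomes X, 20, 7 and 5 it was 9.72%, 9.35%, 7.84% and 5.43%, and on chromosomes 3 and 12 it was 3.53% and 3.8%. The share did not strictly follow the size of the median deviation. Chromosome 5, with the largest, was close to all genes, and chromosome 10 had 8.26% with median deviations of 0.11, −0.05 and −0.06.

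**Figure D4:**
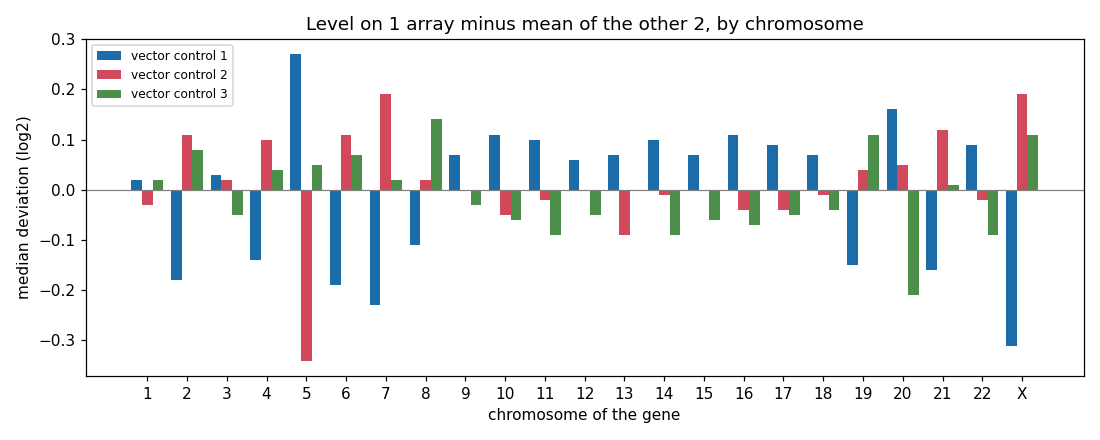
Median over the genes of each chromosome of the level on 1 vector control array minus the mean of the other arrays (vertical axis, log2), 1 bar per array. Array 2 is lowest on chromosome 5 at −0.34 and array 1 on chromosome X at −0.31, whereas chromosome 3 has no bar beyond 0.05.

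Within chromosomes the deviations were gathered in runs of neighbouring genes. In 288 windows of about 40 genes each, the median deviation was beyond 0.25 log2 in 39 windows for array 1, of which 27 were low, in 21 for array 2 and in 14 for array 3. A total of 18 runs of at least 2 adjacent windows passed this limit on the same array in the same direction, on 11 chromosomes, and 11 of the runs belonged to array 1. The deviations of the 3 arrays depend on each other, so the 18 runs are not separate regions. The genes from UBE2V1 to PCMTD2 on chromosome 20 counted once for array 1 and once for array 3. On chromosome 5 a run low on array 2 overlapped runs high on array 1. The window size and the limit were chosen with the data in view, and the runs are a description.

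The longest run covered 430 genes of chromosome 5 from PARP8 to TRIM52, near the end of the long arm, with median deviations of 0.30, −0.40 and 0.08. Array 2 was the lowest for 334 of these genes (77.7%), compared with 29.5% of all genes. The shift was small for each gene, 1.32-fold at the median, and 22 of the 430 genes had a range above 1 log2. The genes' second probes, which were not used to find the run, had a median deviation of −0.42 on array 2 over 123 genes. The windows before PARP8 did not pass the limit on array 2. Among single genes of the run, IQGAP2, a scaffold protein, read 6.78, 5.64 and 5.74, the lysosomal sulfatase ARSB 6.60, 5.46 and 6.56, and ZNF300 6.37, 5.13 and 5.87. These and the other single genes given for a run were picked, after their values were seen, from the 6 widest genes of that run or of a run within it.

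On chromosome 7, 164 genes from LAMB1 to DYNC2I1 were high on array 2, with median deviations of −0.34, 0.45 and −0.09. Array 2 was the highest for 127 of them (77.4%, beside 32.4% of all genes), and 50 second probes had a median deviation of 0.47. CAV1, the coat protein of caveolae, read 8.40, 9.81 and 9.04, the cell adhesion gene CNTNAP2 8.13, 9.68 and 8.04, and ST7 7.29, 8.67 and 7.76. ASNS lies on this chromosome too, in a run of 82 genes from POM121C to ATP5MF that was low on array 1 (−0.27, 0.13 and 0.13), but array 1 was not its lowest array.

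On chromosome 20 the 80 genes from UBE2V1 to PCMTD2 were low on array 3, with median deviations of 0.29, 0.15 and −0.45. Array 3 was the lowest for 66 of them (82.5%, beside 35.9% of all genes). The 22 second probes had a median deviation of −0.27 on array 3 and of 0.13 on array 1. EEF1A2, among the widest genes, lies in this run, as do STMN3, a relative of STMN2 (10.37, 9.50 and 8.98), the neural factor MYT1 (5.86, 5.14 and 4.24) and TCEA2 (7.82, 7.31 and 6.49).

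Chromosome X was low on array 1 in 2 runs. The first held 86 genes from PLCXD1 to MAOA, with median deviations of −0.33, 0.12 and 0.27, and the second 252 genes from UBQLN2 to VAMP7, with −0.34, 0.25 and 0.07. In the second run array 1 was the lowest for 180 genes (71.4%, beside 34.6% of all genes), and 75 second probes had a median deviation of −0.35. In the first run MAOA and PTCHD1 (5.81, 6.01 and 7.42) were high on array 3, and TMSB4X, which binds actin monomers, was low on array 1 (10.39, 11.53 and 11.64). In the second run TCEAL3 read 6.29, 8.04 and 7.91 and SMARCA1, a chromatin remodelling ATPase, 6.46, 8.16 and 6.62. The BEX and TCEAL family of small proteins is encoded there, and array 1 was the lowest for 8 of its 12 detected genes, for example BEX4 (8.28, 9.65 and 9.73) and BEX2 (7.68, 8.89 and 8.29). GABRE, a GABA receptor subunit in the same run, was highest on array 1 at 6.66, 5.05 and 5.25.

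Further runs were found on chromosome 1 (CR2 to PGBD2, 160 genes, 0.27 on array 3), chromosome 2 (ACVR1 to HSPE1, 123 genes, −0.29 on array 1), chromosome 4 (FGF2 to DDX60, 86 genes, −0.27 on array 1) and chromosome 6 (SNORD100 to PDCD2, 120 genes, −0.31 on array 1). Chromosome 8 held a run that was high on array 3 (ELOC to FAM91A1, 126 genes, 0.30), and chromosome 10 a run that was low on array 2 (SYT15 to MSS51, 86 genes, −0.36). On chromosome 19, 162 genes from REXO1 to EPOR were low on array 1 at −0.30 and at 0.27 on array 3. On the array of each run, second probes had median deviations of 0.36, −0.24, −0.31 and −0.33 on chromosomes 1, 2, 4 and 6. On chromosomes 10 and 19 they had −0.36 and −0.23, and on chromosome 8 only 0.12, over 50 genes. Single genes could run against their block. HAS2, STMN2 and CCN3 all lie in the run of chromosome 8 and were not highest on array 3. COL3A1, a fibrillar collagen in the run of chromosome 2, was low on array 1 along with its block, at 5.38, 6.87 and 6.54. DNA was not measured, and whether copy number, sampling of lines or anything else went with these runs was not tested.

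**Figure D5:**
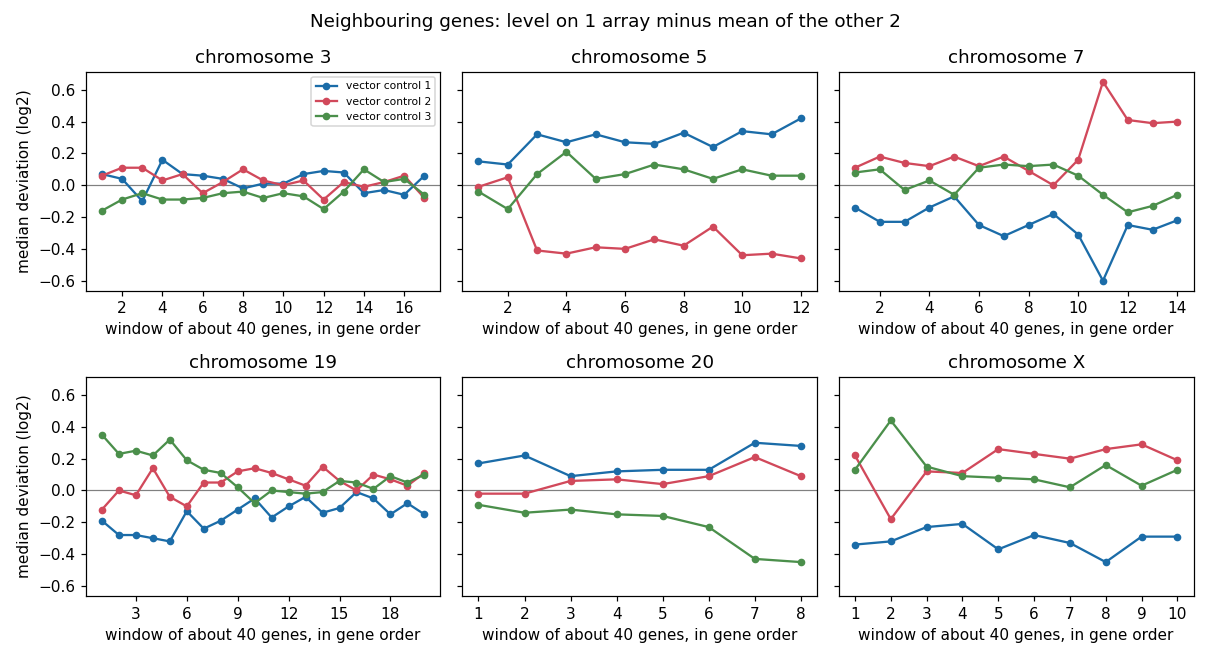
Median deviation of each array from the mean of the other arrays (vertical axis, log2) in consecutive windows of about 40 genes in gene order, for 6 chromosomes, 1 line per vector control array. Chromosome 3 stays near 0, the line of array 2 drops on chromosome 5 and stays low to its end, and the line of array 3 falls to −0.45 at the end of chromosome 20.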

How the data were processed

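Total RNA of 3 vector control samples was read on Illumina HumanHT-12 v4 arrays. The authors preprocessed bead data in GenomeStudio (2011.1 per the submitters' processing notes). The deposited table holds, per probe and array, a background-subtracted intensity (linear scale) with its detection p-value. The deposited detection p-value was used as it is. A second deposited table of the authors' normalized intensity values served as an alternative.

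Intensities were background-corrected by normexp on the detection p-values, quantile-normalized over the 3 arrays and put on the log2 scale by neqc (limma 3.58.1, R 4.3.3, offset 16), whereas the authors deposited no log2 values. Python 3.11.15 computed the rest, checked on simulated arrays. Of 30110 probes with 1 symbol, 30071 matched the GRCh38.p14 gene table, 8 had several symbols and 17197 none. The kept probe with the highest mean stood for a gene in lists, families and chromosomes, and the probe with the widest range for the widest and per-array genes. Named genes were the 25 brightest, the 25 widest (detected on all 3 arrays), the 5 farthest up and down per array, detected lineage members, and the highest and widest members of other lists, plus genes the study was about. The members and lists were chosen with earlier results of these data known. Alternatives were other background corrections, normalizations and filters, and leaving out each array. The array build and the pairing of arrays with slides or dates are not given in the sources used here.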

Additional observations from a re-analysis of the deposited data

How the results depend on the processing

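The number of probes with a range above 1 log2, 927 as reported, was 294 with an offset of 50, 1768 with signals floored at 16 and 143 in the authors' normalized table, and lay between 285 and 440 when 1 array was left out, where fewer arrays give narrower ranges. The number of runs of neighbouring genes, 18 as reported, was 33 in windows of 20 genes, 9 in windows of 60 genes, 7 with an offset of 50, 3 in the authors' normalized table and 0 with no filter on dim probes, alternatives chosen after seeing the data. Without the filter the deviation of array 2 on chromosome 5 was −0.12 and that of array 1 on chromosome X −0.09. The deviation of array 1 for cholesterol synthesis was 0.17 in the authors' table. The cause was not tested. With all 3 arrays, all 144 recomputed deviations of the 18 runs kept their sign, and the 25 widest genes kept a range above 1 log2 in all 172 recomputed values. Both the runs and the genes had been picked for their size on these same arrays. The outcome was thus largely set by that choice and is no separate support. In the authors' normalized table the deviations on chromosomes 5, 7, 20 and X were −0.20, −0.14, −0.11 and −0.19 on arrays 2, 1, 3 and 1 in turn, and that of array 3 for hypoxia-inducible genes was −0.16. Probes detected on 2 arrays had a median level of 4.74, near that of undetected probes, which limits most of them. No paired analysis was possible because a single group was described.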
